A study of Mus musculus with 2 samples.

Results

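TET2 binding at the genes of the BMP and TGF-beta pathways was read from the list of TET2 ChIP-seq peaks in mouse adipocytes. The genes were every protein-coding gene of the GENCODE M21 annotation whose symbol begins as those of the BMP and GDF ligands, the inhibin and activin subunits, the TGF-beta ligands, the receptors, the SMADs, noggin, and the chordin, gremlin and follistatin families do. The rule used symbols only and gave 63 of 21951 protein-coding genes. A peak was given to a gene when its midpoint lay within 1 kb of any transcription start site (TSS) of the gene, 1 to 3 kb from the nearest one, or inside the gene and over 3 kb from every TSS, here called the gene body. Of the 63 genes, 39 had 51 peaks of the 14103 in the list, and no peak was given to more than 1 of these genes.

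The cells were adipose-derived stem cells (ASCs) from the inguinal white fat of mice, differentiated into adipocytes in culture with IBMX, dexamethasone and insulin. The labels give no genotype, age or sex of the mice and name no further treatment. Chromatin was collected with an antibody against TET2, an enzyme that oxidises 5-methylcytosine, and 1 TET2 library was compared by the authors with 1 input library, the sonicated chromatin itself. With 1 library of each kind there is no replicate error and no p-value between conditions, and the intervals below are exact 95% binomial intervals that cover counting error only. Among 6 genes used to check the cell type, Lep, which encodes the adipocyte hormone leptin, had a peak with a −log10 p of 11.2, and no peak was given to Adipoq, Cebpa, Fabp4, Plin1 or Pparg. A peak list holds no expression values, so it does not show which of these genes the cells transcribe.

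Ligands of this family are secreted dimers that bring together type I and type II receptor kinases, and the type I receptor then phosphorylates SMAD proteins that enter the nucleus with SMAD4. BMPs and many GDFs act through SMAD1, SMAD5 and SMAD9, whereas TGF-beta and activins act through SMAD2 and SMAD3. In fat, BMP4 commits progenitors to the adipocyte lineage, BMP7 and BMP8B act on thermogenic fat, and TGF-beta and activin A hold back adipocyte differentiation.

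The sequences of a few of the peaks follow, read from the GRCm38 genome 5′ to 3′ on the strand of the gene, with each CpG, the dinucleotide whose cytosine TET2 oxidises when it is methylated, in capitals. They show the 3 peaks within 1 kb of a TSS with the largest −log10 p and the 2 peaks in gene bodies with the largest −log10 p, which were chosen after their values were seen. Up to 300 bases around the midpoint are printed, and bases of untranslated exons are left out. The Tgfbr3 stretch lies in an intron 341 to 541 bp downstream of the TSS at chr5:107289054-107289254 on the minus strand, the Bmp7 stretch is the 177 bp upstream of the TSS at chr2:172940322-172940498 on the minus strand, and the Bmp3 stretch is the start of the coding sequence at chr5:98855113-98855259 on the plus strand. The Smad6 stretch lies in the last coding exon at chr9:63953644-63953943 on the minus strand, and the Smad3 stretch lies in an intron at chr9:63651018-63651317 on the minus strand.
Tgfbr3: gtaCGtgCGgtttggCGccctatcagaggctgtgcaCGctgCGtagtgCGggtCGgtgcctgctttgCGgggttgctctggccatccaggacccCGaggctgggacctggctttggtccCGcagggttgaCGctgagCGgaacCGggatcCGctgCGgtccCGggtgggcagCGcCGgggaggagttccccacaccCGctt
Bmp7: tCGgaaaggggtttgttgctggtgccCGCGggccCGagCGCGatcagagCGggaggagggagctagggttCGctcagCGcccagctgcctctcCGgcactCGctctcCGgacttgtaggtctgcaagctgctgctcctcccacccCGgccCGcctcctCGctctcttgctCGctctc
Bmp3: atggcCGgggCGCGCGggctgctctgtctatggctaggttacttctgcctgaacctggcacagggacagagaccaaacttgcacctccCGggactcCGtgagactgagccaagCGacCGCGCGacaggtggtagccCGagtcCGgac
Smad6: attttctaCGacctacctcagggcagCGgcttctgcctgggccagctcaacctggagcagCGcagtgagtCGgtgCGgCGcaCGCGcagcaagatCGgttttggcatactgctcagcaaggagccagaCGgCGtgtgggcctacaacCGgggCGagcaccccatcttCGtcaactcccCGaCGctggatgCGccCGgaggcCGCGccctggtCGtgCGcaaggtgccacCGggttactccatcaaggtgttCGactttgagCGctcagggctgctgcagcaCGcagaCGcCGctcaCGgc
Smad3: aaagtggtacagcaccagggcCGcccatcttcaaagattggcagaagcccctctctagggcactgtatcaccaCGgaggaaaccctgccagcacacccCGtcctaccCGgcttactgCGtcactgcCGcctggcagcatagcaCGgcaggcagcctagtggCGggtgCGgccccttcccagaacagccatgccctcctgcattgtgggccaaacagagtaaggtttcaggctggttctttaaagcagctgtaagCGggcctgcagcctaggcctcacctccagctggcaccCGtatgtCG
The Smad6 coding stretch held 29 CpGs in 300 bases, and the Smad3 intron stretch held 12 in the same length.

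A TET2 peak lay within 1 kb of a TSS of 25 of the 63 genes, or 39.7% (interval 27.6% to 52.8%), against 24.6% of all protein-coding genes. In gene bodies 18 genes had a peak, or 28.6% (interval 17.9% to 41.3%), against 13.0%. A peak 1 to 3 kb from a TSS was found for 4 genes, Bmp2, Inha, Smad6 and Fst. Their share was 6.35% (interval 1.76% to 15.5%), near the 5.05% of all genes. Counting all 3 places, 39 genes (61.9%, interval 48.8% to 73.9%) carried at least 1, and 36.4% of all protein-coding genes did. A peak at the promoter alone was found for 18 genes, a promoter and a body peak for 7, a body peak alone for 10, a peak 1 to 3 kb away alone for 3 and such a peak with a body peak for 1. More than 1 peak was given to 10 of the 63 genes, or 15.9% (interval 7.88% to 27.3%), against 8.18% of all genes, and Smad3 and Bmp2k had the highest number, 3 each. No peak lay within 50 kb of any TSS for 14 genes, or 22.2% (interval 12.7% to 34.5%), against 33.7% of all genes.

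**Figure D1:**
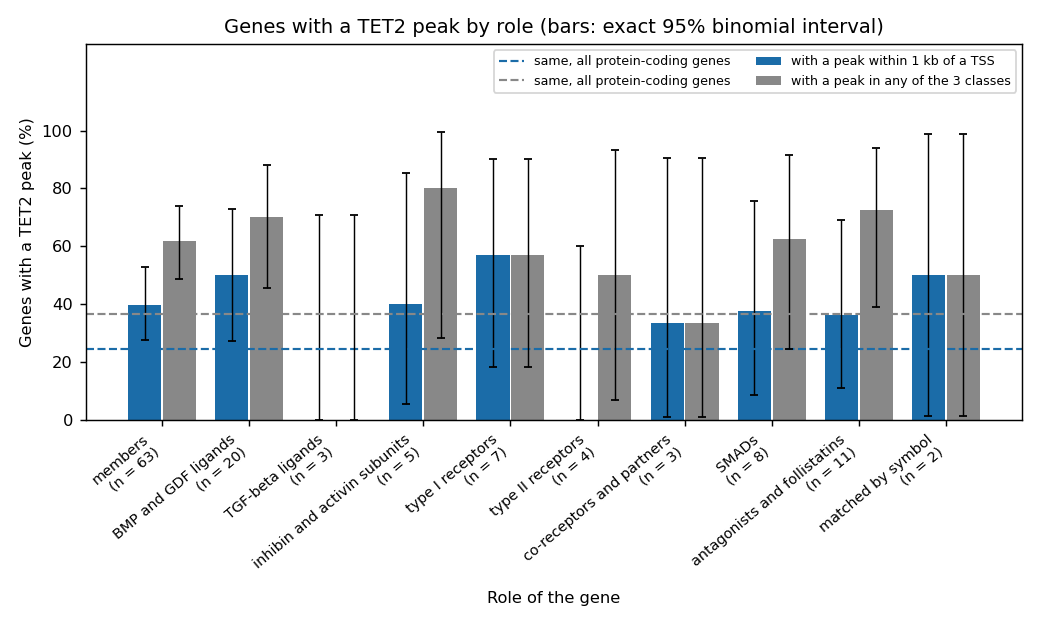
Share of the 63 BMP and TGF-beta pathway genes, and of each role, with a TET2 peak within 1 kb of a TSS (blue) or in any of the 3 places (grey), in percent on the vertical axis with exact 95% binomial intervals. Dashed lines give the shares over all protein-coding genes, 24.6% and 36.4%. No TGF-beta ligand had a peak in any of the 3 places and no type II receptor had one within 1 kb of a TSS, and with 3 and 4 genes their intervals reach 70.8% and 60.2%.

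These genes differed from the average gene in promoter sequence and in length, and both moved with the share of genes that had a peak. A promoter was called CpG-rich when the 500 bp on each side of the 5′-most TSS had a GC content of at least 50% and a ratio of observed to expected CpG of at least 0.6. By this measure 41 of the 63 genes (65.1%, interval 52.0% to 76.7%) had a CpG-rich promoter, against 44.4% of all protein-coding genes. Among CpG-rich promoters 19 of 41 (46.3%, interval 30.7% to 62.6%) had a peak within 1 kb, against 39.5% of all such genes, so the interval covered the share over all genes. Among the other promoters it was 6 of 22 (27.3%, interval 10.7% to 50.2%), against 12.6%, an interval that covered it as well. With any of the 3 places counted, 27 of the 41 genes with a CpG-rich promoter qualified (65.9%, interval 49.4% to 79.9%), against 52.1%. This last share was taken for the CpG-rich class alone and does not describe the other 22 genes. The 6 genes with a promoter peak outside the CpG-rich class were Bmp3, Gdf15, Gdf2, Inhba, Inhbc and Fstl1.

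**Figure D2:**
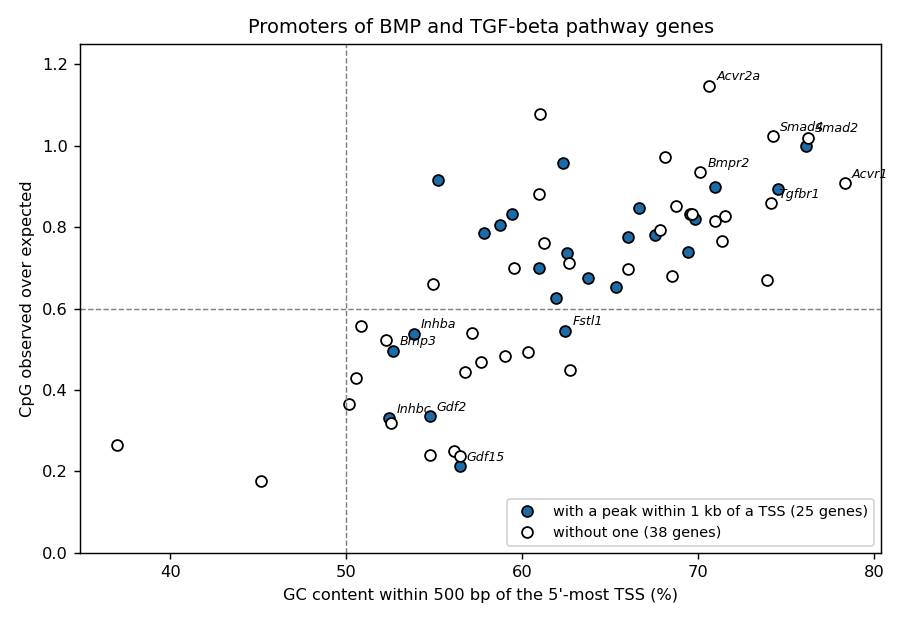
GC content (horizontal axis, percent) and ratio of observed to expected CpG (vertical axis) within 500 bp of the 5′-most TSS of each of the 63 genes, filled where the gene had a TET2 peak within 1 kb of a TSS. The filled points run from 0.213 at Gdf15 to 1.00 at Bmp2k, and the genes with the 2 highest values among the open points are Acvr2a at 1.15 and Bmp2 at 1.08.

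The genes were also longer than average, with a median length of 30.0 kb against 17.4 kb. Body peaks were found in 3 of 19 genes under 10 kb (15.8%, interval 3.38% to 39.6%), against 1.89% of all genes of that length. For genes of 10 to 100 kb the count was 11 of 34 (32.4%, interval 17.4% to 50.5%), against 13.4%, and for genes over 100 kb it was 4 of 10 (40%, interval 12.2% to 73.8%), against 46.0%. Below 100 kb both intervals thus lay above the share over all genes of like length, whereas above 100 kb the interval covered it. The class of 10 to 100 kb was chosen after the data were seen, so these intervals describe the counts and are no test. The 3 genes under 10 kb were Gdf5, Gdf7 and Inhbe, with peaks 3209, 3196 and 3134 bp from the TSS, just past the 3 kb limit. With RefSeq TSSs the Inhbe peak counted as a promoter peak, so the share under 10 kb depends on that limit and on the TSS set. Genes under 3 kb cannot hold a body peak as defined here and are counted in both shares. Among genes with a CpG-rich promoter 13 of 41 (31.7%, interval 18.1% to 48.1%) had a body peak, against 16.6%.

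The BMP and GDF ligands were the largest role and had a promoter peak at 10 of 20 genes (50%, interval 27.2% to 72.8%), against 24.6% of all genes. A peak in any place was found at 14 of 20 (70%, interval 45.7% to 88.1%), against 36.4%. The promoter share was higher at type I receptors (57.1%). The share for any place was higher at inhibin and activin subunits (80%) and at antagonists and follistatins (72.7%). Bmp7 had the peak with the largest −log10 p among the promoters of BMP and GDF ligands, 10.3, at 28 bp upstream of the TSS. Bmp3, a ligand that opposes other BMPs and is best known from bone, followed with 10.2 at 659 bp downstream, and Gdf15, a hormone of cellular stress that lowers food intake, with 9.39 at 746 bp downstream in its coding sequence. In the whole list 7.42% of peaks exceeded the value at Bmp7 and 7.46% that at Bmp3.

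Bmp6, which also regulates iron through hepcidin, had a peak of 7.92 in its first coding exon, 216 bp upstream of the nearest TSS and 830 bp downstream of the 5′-most one. The neighbouring Bmp8b and Bmp8a genes, whose products resemble each other closely, each had promoter peaks: a single peak of 1143 bp with a −log10 p of 7.05 spanned the Bmp8b TSS, and Bmp8a had 2 separate peaks, of 4.84 at 95 bp upstream and 6.18 at 346 bp downstream of a TSS. None of the 51 peaks, these 3 included, matched another place in the genome over 100 bp at 90% identity, in a search that started only from bases outside repeats. The 2 Bmp8a peaks differed in base composition, with a ratio of observed to expected CpG of 0.433 upstream and 0.865 downstream.

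Near their TSSs, the other BMP and GDF ligands had values below that of Bmp6. Gdf7 had 5.57 at 158 bp downstream of its TSS and Gdf10, also called BMP3B, had 5.13 at 333 bp. The peak at Gdf2, which encodes BMP9, a liver-made ligand of endothelial receptors, had a −log10 p of 4.0 and lay 945 bp into the gene in an intron, so that 97.0% of all peaks had a larger value. Gdf9, an oocyte ligand, had a peak of 7.34 at 594 bp upstream, but this peak lay 5 bp from the TSS of Uqcrq, a mitochondrial gene, and the list does not tell the 2 genes apart. Bmp2 fell just outside the 1 kb limit, with a peak of 6.15 at 1010 bp downstream in its 5′ untranslated exon.

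**Figure D3:**
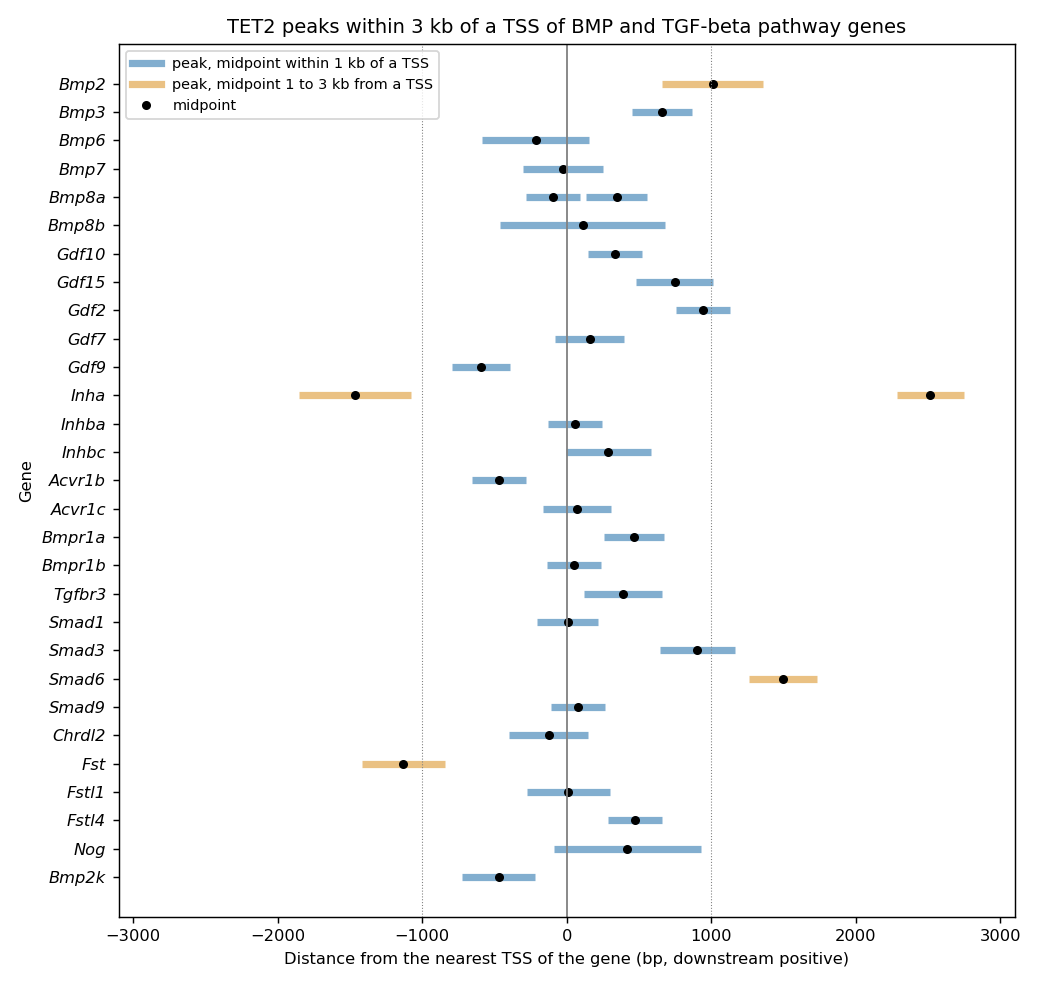
Each TET2 peak within 3 kb of a TSS of a BMP or TGF-beta pathway gene, drawn from start to end against the distance in bp from the nearest TSS of that gene, with downstream positive and the midpoint as a black dot. Blue bars are the 26 peaks with a midpoint within 1 kb and orange bars the 5 at 1 to 3 kb, and 19 of the 26 midpoints lie downstream of the TSS.

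Of the 26 peaks within 1 kb, 19 (73.1%) had their midpoint downstream of the TSS, against 67.3% of all pairs of such a peak and a protein-coding gene, with a median offset of 95 bp against 86 bp. Within 200 bp lay 11 of 26 (42.3%), against 56.0%. By annotation 8 of the 26 midpoints fell in a coding exon, 6 in a 5′ untranslated exon, 5 in an intron, 1 in a noncoding exon and 6 outside the gene. The share in a coding exon was 30.8% (interval 14.3% to 51.8%), against 24.9% of all such pairs, which the interval covered.

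In gene bodies the GDF5 group of ligands, Gdf5, Gdf6 and Gdf7, which shape joints and tendons, each had a peak in the last of their 2 coding exons. The exon that ends a GDF gene encodes the mature growth factor that is cut from the precursor. The Gdf6 peak had a −log10 p of 10.9, the largest among all ligands, and lay 15276 bp downstream of its TSS. Gdf5 had 8.52 at 3209 bp and Gdf7 had 8.34 at 3196 bp, and the Gdf7 value in the last exon was larger than the 5.57 at its own promoter. All 3 stretches were rich in CpG, with a ratio of observed to expected CpG of 0.657 at Gdf5, 0.688 at Gdf6 and 0.978 at Gdf7, against a median of 0.372 over all peaks in protein-coding gene bodies. The midpoint of the Gdf5 peak lay 1430 bp from the TSS of Gm15557, another protein-coding gene model.

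Other body peaks of ligands had lower values. Gdf10 had a peak of 5.32 in coding exon 2 of 3, Bmp7 one of 5.13 in an intron 26.5 kb downstream of the TSS, and Bmp5 one of 5.13 in an intron with no CpG in its 375 bp. The 6 ligands without a peak were Bmp4, Bmp10 of the heart, Bmp15 of the oocyte, Gdf1 and Gdf3 of early embryos, and Gdf11, a relative of myostatin. The nearest peak lay 6.65 kb downstream of a Bmp4 TSS, 477 bp upstream of the noncoding gene Gm15217, 12.3 kb away for Gdf1, 31.4 kb for Gdf11, 35.1 kb for Bmp10, 65.3 kb for Gdf3 and 229 kb for Bmp15.

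None of the 3 TGF-beta ligand genes had a peak in any place (upper bound of the interval 70.8%), against 36.4% of all genes. The nearest was 11.9 kb upstream of Tgfb1, at 8 bp from the TSS of Tmem91, and lay 254 kb away for Tgfb3 and 262 kb for Tgfb2. Tgfb1 and Tgfb3 belonged to the CpG-rich class, and Tgfb2 at 0.540 did not.

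Of the 5 inhibin and activin subunit genes, 4 had a peak in any place (80%, interval 28.4% to 99.5%), against 36.4% of all genes. Inhba, which encodes the subunit of activin A, had a peak of 5.13 at 59 bp downstream of a TSS, and Inhbc, a liver activin gene, one of 4.73 at 288 bp in its coding sequence. Inhbe, the neighbour of Inhbc on chromosome 10 and likewise a liver gene, had a peak of 5.07 in its first coding exon, 3134 bp downstream of the annotated TSS. With the TSSs of RefSeq in place of GENCODE, the Inhbe peak counted as a promoter peak. Inha, the inhibin alpha subunit, had 2 peaks 1 to 3 kb from its TSS, of which the larger, 8.03 at 1464 bp upstream, lay 28 bp from the TSS of Obsl1, a cytoskeletal gene. The other Inha peak, 5.26 at 2517 bp downstream, was in the last of its 2 coding exons. Inhbb had no peak closer than 20.7 kb.

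Type I receptors had promoter peaks at 4 of 7 genes, all with modest values. The share was 57.1% (interval 18.4% to 90.1%), and the interval covered the 24.6% of all genes. Bmpr1a, a BMP receptor used by BMP2 and BMP4, had 6.04, Acvr1b, the activin receptor ALK4, had 5.91, Bmpr1b had 5.13 and Acvr1c, the receptor ALK7 that restrains lipolysis in adipocytes, had 4.95. All 4 were below the median of 6.83 over all peaks within 1 kb of a protein-coding TSS. The Bmpr1a peak lay 465 bp downstream of a TSS of Bmpr1a and 348 bp from that of Gm17110, an antisense RNA gene, and it dropped out when only the 5′-most TSS of each gene was used. Bmpr1b had a further peak of 4.12 in an intron. Acvr1, Acvrl1 and Tgfbr1 had none, with the nearest peaks 159 kb, 36.0 kb and 67.5 kb away, and the peak nearest to Acvr1 and to Acvrl1 was the promoter peak of the adjacent Acvr1c and Acvr1b, respectively.

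Type II receptors had no promoter peak at any of 4 genes (upper bound of the interval 60.2%), against 24.6% of all genes. All 4 promoters were CpG-rich, with ratios from 0.762 at Tgfbr2 to 1.15 at Acvr2a. Of all genes with a CpG-rich promoter 39.5% had a promoter peak, a share that the interval covered. Tgfbr2, the TGF-beta receptor, had a body peak of 6.21 in coding exon 5 of 8, 65.3 kb downstream of a TSS. Acvr2b, an activin and myostatin receptor, had a body peak of 7.34 in an intron 5851 bp downstream of a TSS and 721 bp from that of Gm47320, an antisense RNA gene. Acvr2a and Bmpr2 had none, and the nearest peak lay 169 kb and 154 kb away. Of 3 co-receptors and partners, Tgfbr3, which encodes betaglycan, a membrane proteoglycan that presents TGF-beta2 and inhibin, had the largest promoter value of all 63 genes, 10.5 at 391 bp downstream of a TSS, and 6.81% of all peaks had a larger one. Tgfbr3l had no peak closer than 7.94 kb and Tgfbrap1 none closer than 28.2 kb.

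The SMAD genes held the 2 largest values of the whole set, both in gene bodies on chromosome 9. Smad6, which encodes an inhibitor of BMP signalling, had a peak of 14.6 in its last coding exon, 4 of 4. It lay 63.2 kb downstream of the nearest Smad6 TSS and ranked 135 among the 14103 peaks. Smad3, which carries the TGF-beta and activin signal, had a peak of 14.3 in an intron near the end of the gene, ranked 150. It lay 15.4 kb from the nearest Smad3 TSS and 107 kb from the 5′-most one. Thus 0.950% and 1.06% of all peaks had a larger value. The nearest TSS of any gene was that of the noncoding gene Gm36033 for the Smad6 peak, at 16673 bp. For the Smad3 peak it was that of the protein-coding gene Aagab, at 12515 bp. The 2 peaks differed in sequence, with a ratio of observed to expected CpG of 0.812 at Smad6 and 0.357 at Smad3, as the printed stretches show, and neither overlapped a base marked as a repeat.

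Smad3 also had a promoter peak of 9.09 at 904 bp downstream of its TSS and an intron peak of 5.13, giving 3 peaks. Near its TSS Smad6 had only a weak peak, which lay 1497 bp downstream in the first coding exon and had a −log10 p of 3.16, the smallest of all 51 peaks, and 99.8% of all peaks had a larger one. The 2 genes are neighbours on the same strand, and the list holds no peak in the interval between them.

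**Figure D4:**
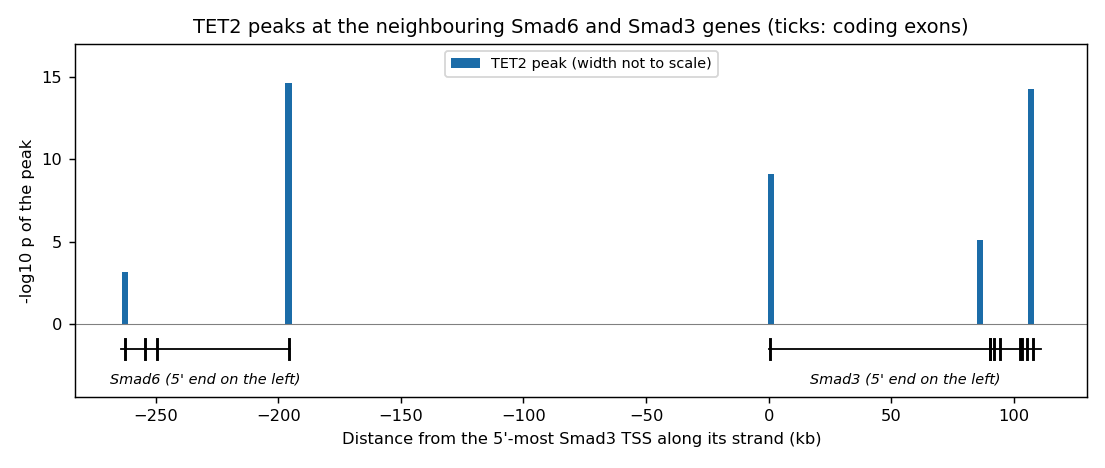
TET2 peaks (bars, height is the authors' −log10 p on the vertical axis) against distance in kb from the 5′-most Smad3 TSS along its strand, with gene spans as lines and coding exons as ticks, and with bar width not to scale. The highest bars stand at the 3′ ends of both genes, 14.6 at Smad6 and 14.3 at Smad3, and the region between the genes holds no peak.

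Among the SMADs of the BMP branch, Smad1 had a peak of 7.94 centred 6 bp downstream of its TSS. Smad9 had a promoter peak of 6.80 at 79 bp and a body peak of 7.91 in coding exon 2 of 5, and Smad5 had none within 11.2 kb. Smad7, the other inhibitory SMAD, had a single peak of 5.13 in its last coding exon, 4 of 4. Smad2 and the shared Smad4 had no peak in any of the 3 places, and the nearest lay 95.4 kb and 50.3 kb away. Their promoters were among the most CpG-rich of the set, with ratios of 1.02 each.

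Of 11 antagonists and follistatin family genes, 4 had a promoter peak (36.4%, interval 10.9% to 69.2%), against 24.6% of all genes. A peak in any place was found at 8 (72.7%, interval 39.0% to 94.0%), against 36.4% of all genes. Nog, which encodes the BMP antagonist noggin in a single coding exon, had a peak of 1021 bp, long beside the 1.70 kb of the gene, with a −log10 p of 9.82. Fstl1, a secreted glycoprotein made by preadipocytes, had 8.51 at 10 bp downstream of a TSS, Chrdl2, a chordin-like protein, had 7.05 just upstream of its TSS and Fstl4 had 6.82 at 475 bp downstream. Fst, which encodes the activin trap follistatin, had a peak of 5.59 at 1132 bp from the nearest TSS, in an intron. Grem1, a BMP antagonist of fat progenitors, had no promoter peak but one of 6.90 in its only coding exon. Fstl5 had a peak of 6.62 in an intron, in a stretch of which 96.3% is marked as repeats. Chrd, Chrdl1 and Fstl3 had none, with the nearest peak 81.3 kb, 88.8 kb and 23.3 kb away.

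A pair of genes matched by symbol alone. Bmp2k, a kinase named for its induction by BMP2, had a peak of 8.68 at 472 bp upstream, 147 bp from the TSS of the noncoding gene Gm9484, and body peaks of 7.94 in its last coding exon, 16 of 16, and of 6.98 in an intron. Bmp1, the protease that trims procollagen and chordin, had no peak closer than 42.9 kb. With these 2 genes, Tgfbrap1 and the follistatin-like genes left out, 56 genes remained. Of them 22 (39.3%) had a promoter peak and 35 (62.5%) a peak in any place, against 24.6% and 36.4% of all genes.

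The median −log10 p was 6.94 (order statistic interval 5.57 to 8.51) for the 26 promoter peaks and 6.83 for all peaks within 1 kb of a protein-coding TSS, a value the interval covered. For the 20 body peaks it was 6.76 (interval 5.13 to 7.94), against 6.21 for all peaks in protein-coding gene bodies. The value 5.13 occurred at 7 of the 51 peaks and at 1497 of the whole list, so peaks tied at it have no order. The stated p-value cutoff of the peak calling would leave no value below 5, but 6 of the 51 peaks and 2182 of the list (15.5%) lie below it, so the cutoff that made the list is not known. The 6 were peaks of Bmp8a, Gdf2, Inhbc, Acvr1c, Bmpr1b and Smad6. The length of the pathway peaks ran from 375 to 1143 bp, with 428 bp as the median.

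**Figure D5:**
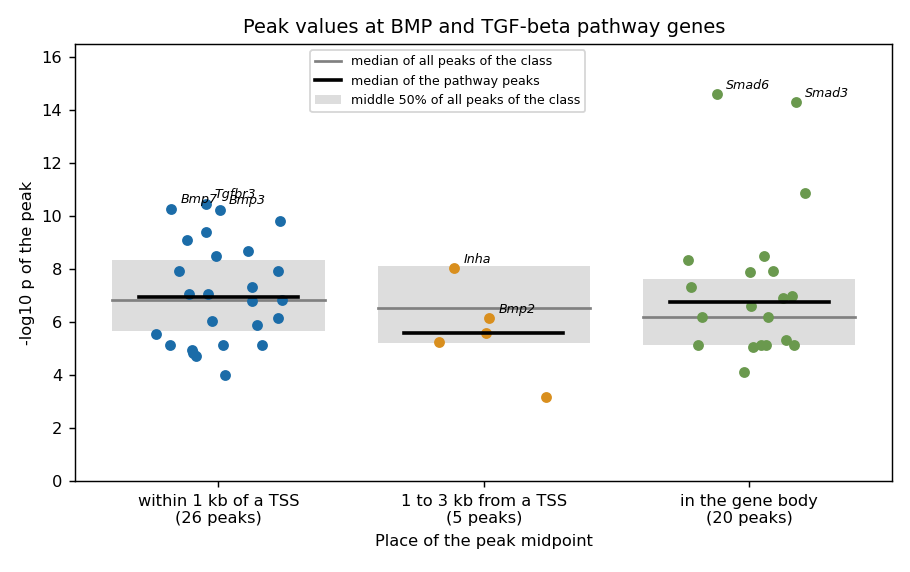
−log10 p of the 51 TET2 peaks at BMP and TGF-beta pathway genes (vertical axis) by place of the midpoint, with the median of the pathway peaks in black, and the median and middle 50% of all peaks of the same place in grey. The medians of the 26 promoter peaks and of all promoter peaks are 6.94 and 6.83, and the Smad6 and Smad3 body peaks stand at 14.6 and 14.3, above the other body peaks.

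Peaks in the last coding exon recurred over several roles, a pattern noticed after the values were seen. Of the 20 body peaks, 11 (55%, interval 31.5% to 76.9%) had their midpoint in a coding exon, against 24.5% of all pairs of a body peak and a protein-coding gene, and 7 (35.0%, interval 15.4% to 59.2%) in the last one, against 10.2%. The 7 were those of Gdf5, Gdf6, Gdf7, Smad6, Smad7, Grem1 and Bmp2k. Of these genes, Gdf5, Gdf6, Gdf7 and Grem1 have only 1 or 2 coding exons. In genes of 3 or more coding exons the count was 3 of 14 (21.4%, interval 4.66% to 50.8%), against 7.73%, so that the interval covered the share over all genes. A ratio of observed to expected CpG of at least 0.6 was found in 5 of the 20 body peaks (25%), against 18.9% of all body peaks, and the part of base composition in these counts was not tested.

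By sequence, the promoter peaks had a median ratio of observed to expected CpG of 0.818, and all promoter peaks 0.789. Body peaks had a median ratio of 0.450 against 0.372. At least 50% of the peak was marked as repeat in 0 of 26 promoter peaks, against 1.03% of all promoter peaks, and in 3 of 20 body peaks (15%), among them those of Fstl5 and Bmp7, against 22.4% of all body peaks.

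Motifs were counted in the 300 bp around each midpoint on both strands, none of them containing another. The palindromic SMAD motif GTCTAGAC was in 0 of 51 peaks (upper bound of the interval 6.98%), against 0.163% of all peaks. The shorter SMAD motif CAGAC was in 28 (54.9%), against 52.8%, and the GC-rich SMAD motif GGCGCC in 8 (15.7%), against 18.7%. Of those 8 peaks 7 were at promoters, those of Gdf9, Bmpr1a, Bmpr1b, Tgfbr3, Smad9, Chrdl2 and Fstl4, and the eighth was the Fst peak. The SP1 motif GGGCGG was in 26 peaks (51.0%, interval 36.6% to 65.2%), against 33.8%, and within promoters in 57.7% against 59.4%. In body peaks it was in 8 of 20 (40%, interval 19.1% to 63.9%), against 18.9%, and 5 of those 8 were the peaks of Gdf5, Gdf6, Gdf7, Smad7 and Grem1 described above. The C/EBP motif TTGCNNAA was in 7 peaks (13.7%, interval 5.70% to 26.3%), against 6.64%. The 7 were the Gdf5 body, Inhba, Acvr1b, Acvr2b, Smad3 intron (the one of 5.13), Fst and Bmp2k intron peaks. By place, the C/EBP motif was in 2 of 26 promoter peaks (7.69%, interval 0.946% to 25.1%), against 4.31%. In body peaks it was in 4 of 20 (20%, interval 5.73% to 43.7%), against 6.84%. All of these C/EBP intervals covered the share they are set against. A match in these letters is not evidence of binding by the factor.

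Other genes of the pathways, a list of 55 that the symbol rule does not take, had a promoter peak in 22 (40%, interval 27.0% to 54.1%), against 24.6% of all genes, a peak 1 to 3 kb away in 6 (10.9%, interval 4.11% to 22.2%), against 5.05%, and any peak in 29 (52.7%, interval 38.8% to 66.3%), against 36.4%. Body peaks were found in 7 (12.7%, interval 5.27% to 24.5%), near the 13.0% of all genes. Values are given for examples chosen after they were seen. Bgn, which encodes the proteoglycan biglycan, had a promoter peak of 20.7, the largest value among these 55 genes, and Rgmb, a BMP co-receptor, had one of 10.3. Among the latent TGF-beta binding proteins, Ltbp4 had a promoter peak of 13.1, Ltbp1 of 5.68 and Ltbp2 of 3.95, and Ltbp3 had no peak. Fbn2 and Fbn1, the fibrillins that anchor latent ligands, had promoter peaks of 10.5 and 9.08, and Sost, which encodes sclerostin, had a peak of 11.4 at 1 to 3 kb from a TSS. Among target genes, Id1 had 7.28, Id3 6.82 and Id2 5.21 at their promoters, and Bambi, a decoy receptor, 4.73, while Id4 and Pmepa1 had no peak. The nuclear co-repressors Skil and Ski had 6.12 and 4.73. Smurf1 and Smurf2, ubiquitin ligases of SMADs and receptors, had body peaks of 7.79 and 5.13 and no promoter peak. None was found at Mstn, Nodal, Dcn, Thbs1, Lrrc32 or Map3k7.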

How the data were processed

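ChIP-seq of TET2 gave 1 library of adipocytes differentiated in culture, with 1 input library. The authors removed poor reads and adapters, aligned the rest with bowtie1 and called peaks with MACS2, which the submitters' processing notes give as version 2.1.0. The deposited list holds, per peak, its start and end and a −log10 p from the authors' peak calling. The list has no header, and the column was taken as −log10 p because it matches the column after the pileup in the authors' annotated peak table, the place where MACS2 writes it. The reporting summary states a p-value cutoff under which none would lie below 5, yet 2182 of 14103 peaks do, so that cutoff does not describe the list. No read totals are in the list, so the depth behind a peak is unknown. The processing notes name mm10 and the methods GRCm39, and positions are given on GRCm38, the assembly of mm10. Starts and ends were taken as 1-based.

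Peaks were placed by their midpoints against every transcript of GENCODE M21, and promoter sequence was read from the RefSeq GRCm38 genome. The members and lists were chosen with earlier results of these data known. The genes named are those of the symbol rule, each peak of theirs with its values, except a few items that are counted but not reported here, and the other pathway genes as counts with examples. Shares have exact 95% binomial intervals (scipy 1.17.1), and the median of the −log10 p an interval from order statistics. Copies of a peak were sought with blastn 2.17.0, with repeat-marked bases not used to start a match. Python 3.11.15, numpy 2.4.6, pandas 2.3.3, pysam 0.24.0, samtools 1.23.1 and matplotlib 3.10.9 were used. The code of the placement step was checked on simulated peaks placed by the same distance rule, which does not test the rule itself. The alternatives were other windows, TSS sets, thresholds on −log10 p, CpG classes, motif windows and the removal of repeat-rich peaks. The input library by itself was not analysed here.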

Additional observations from a re-analysis of the deposited data

How the results depend on the processing

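Of 71 alternative values, 62 moved by less than the criterion set for them and 9 moved by more; none reversed, and 3 alternatives were chosen after seeing the data. Most of the movement came from keeping only peaks with a −log10 p of at least 8: 8 genes then had a promoter peak (7.61% of all protein-coding genes did), 1 a peak 1 to 3 kb away (1.41%), 5 a body peak (3.38%) and 13 any peak (11.8%), with 14 distinct peaks and a median promoter value of 9.60. At a threshold of 5, 22 genes kept a promoter peak, without Acvr1c, Gdf2 and Inhbc, against 22.1% of all genes. Windows of 500 bp and 2 kb gave 20 genes (21.6% of all genes) and 29 (26.9%); Bmp3, Gdf15, Gdf2, Gdf9 and Smad3 fell out under the first, and Bmp2, Fst, Inha and Smad6 came in under the second. With the 5′-most TSS alone Bmpr1a and Gdf15 fell out (23 genes, against 20.1% of all genes). With protein-coding transcripts alone Gdf9 did (24 genes, against 23.1% of all genes). For the share of CpG-rich promoters with a peak within 1 kb, a stricter CpG class gave 44.8% against 44.6% of all genes of that class. A 250 bp CpG window gave 45% against 37.8%, and a −log10 p of at least 5 gave 43.9% against 35.5%. With the CpG class set by any TSS, an alternative chosen after the data were seen, it was 44.2% against 39.9%. Among genes of 10 to 100 kb alone, 11 of 34 (32.4%) had a body peak, against 13.4% of all genes of that length. This class of length was chosen after the data were seen. Over whole peaks in place of 300 bp, CAGAC was in 72.5% and GGCGCC in 29.4% of the 51 peaks; these windows are longer. No paired analysis was possible because the deposited list comes from a single TET2 library.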
